A study of Mus musculus with 3 samples.

Results

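The 8 genes of the epidermal growth factor (EGF) family described here, Areg, Ereg, Hbegf, Tgfa, Egf, Btc, Epgn and Nrg1, were found by their symbols among 33696 features and followed across the epithelial and stromal cell classes of the mouse larynx. EGF family ligands are made as membrane proteins, and enzymes at the cell surface shed the part that binds ErbB receptors on the same cell or on neighbours. EGF, amphiregulin (Areg), TGF-alpha (Tgfa) and epigen (Epgn) bind EGFR. HB-EGF (Hbegf), betacellulin (Btc) and epiregulin (Ereg) bind EGFR and ERBB4, whereas neuregulin 1 (Nrg1) binds ERBB3 and ERBB4. In stratified and airway epithelia these ligands are known for their part in growth, migration and wound closure, and LRIG1, whose gene drove the cell label used here, is a membrane protein that restrains ErbB receptors.

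The study asked which cells of the laryngeal and vocal fold mucosa express Lrig1 and what those cells transcribe. All 3 libraries came from Lrig1CreERT2/+; ROSA26 LSL-tdTomato/+ mice, in which tamoxifen-activated Cre, made from a single Lrig1 allele, turns on the red protein tdTomato in cells that express Lrig1 while the drug is present. The mice received tamoxifen on consecutive days, and their age is not given in the sources used here. Larynges were taken 24 h after recombination, each library pooled 10 larynges (5 male and 5 female), and sorted tdTomato-positive cells were sequenced by droplet single-cell RNA-seq of transcript 3′ ends. There was no treated or unlabelled group, so every comparison below is between classes of cells of the same pools. All cells passed the sort for a label driven by Lrig1, a class that recombines rarely is thinly sampled, and neither tdTomato nor Cre was among the features.

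Of 18068, 10816 and 31646 barcodes in libraries 1, 2 and 3, 13222, 7201 and 24119 cells were kept, with median depths of 10554.5, 14025 and 10396 unique molecular identifiers (UMIs, 1 per captured molecule). Fixed marker gates placed 10761, 6288 and 19447 of these in a class. A class is called "like" a cell type because it rests on those markers alone. Between 3 and 6 of 6 further markers per named class, not used in its own gate, were higher inside than outside it in every library that held its cells. That was 1 library for chondrocyte-like cells and 2 for tuft-like and myoepithelial-like cells. Markers that were not higher in all included Sprr3 and Cstdc4 for suprabasal squamous-like and Col17a1 and Itga6 for airway basal-like cells. From 19 classes, 13 held at least 20 cells in each library. Libraries shared 46 to 165 barcodes. In library 2 the muscle satellite-like cells stood apart, with a summed level of 15 genes that respond to tissue dissociation of 22249 CPM (counts per 1000000 UMIs of the class) against 2516 and 2441 in libraries 1 and 3, and in library 3, 11.2% of cells passed 2 or more lineage gates and were left out, against 2.62% and 1.25%.

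Levels are CPM, a ligand's UMIs scaled to the total UMIs of a class in 1 library, given in the order of libraries 1, 2 and 3. A UMI counts a molecule whatever its length, so levels were not divided by length. In all kept cells Nrg1 had 48709 UMIs, Hbegf 16215, Tgfa 11549, Btc 1938, Areg 1897, Egf 1514, Ereg 376 and Epgn 70. Nrg1, Hbegf and Tgfa were thus the ligands that could be followed in single cells, and Epgn did not pass the filter on low counts in any main fit.

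Areg, Ereg, Epgn and Btc lie together on chromosome 5 (GRCm39), within 376 kb. In this order, Epgn spans chr5:91175323-91183074 (+), Ereg chr5:91222157-91241505 (+), Areg chr5:91287451-91296291 (+) and Btc chr5:91505120-91550883 (-). The gaps are 39.1 kb from Epgn to Ereg, 45.9 kb from Ereg to Areg and 208.8 kb from Areg to Btc. Tgfa spans chr6:86172041-86252728 (+), Egf chr3:129470410-129549093 (-) and Nrg1 chr8:32303906-33374825 (-). Ereg, Hbegf, Tgfa, Egf and Nrg1 each overlap at least 1 gene on the opposite strand, and the strand setting of the counting is not given in the sources used here.

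The promoters of the chromosome 5 neighbours are shown as a description, and their part in the levels of these genes was not tested. Each is the 250 bases before the start in RefSeq (GRCm38.p6). Hbegf was not looked up there, and of the other members 5 had an entry, whereas Ereg and Nrg1 had none. They were searched on both strands for the cAMP response element TGACGTCA and for an AP-1 site, TGANTCA, and a match is in capitals. The windows are chr5:91139349-91139598 (+) for Areg, chr5:91402995-91403244 (-) for Btc and chr5:91027267-91027516 (+) for Epgn.
Areg: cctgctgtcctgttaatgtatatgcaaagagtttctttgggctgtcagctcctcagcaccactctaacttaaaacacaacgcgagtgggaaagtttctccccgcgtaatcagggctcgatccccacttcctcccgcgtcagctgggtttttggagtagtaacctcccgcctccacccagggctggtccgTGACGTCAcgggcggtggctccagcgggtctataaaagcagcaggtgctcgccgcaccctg
Btc: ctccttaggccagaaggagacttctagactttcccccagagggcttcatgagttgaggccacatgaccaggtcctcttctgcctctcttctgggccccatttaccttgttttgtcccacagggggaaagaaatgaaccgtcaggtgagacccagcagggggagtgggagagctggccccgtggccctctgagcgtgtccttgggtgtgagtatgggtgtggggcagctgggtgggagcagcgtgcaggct
Epgn: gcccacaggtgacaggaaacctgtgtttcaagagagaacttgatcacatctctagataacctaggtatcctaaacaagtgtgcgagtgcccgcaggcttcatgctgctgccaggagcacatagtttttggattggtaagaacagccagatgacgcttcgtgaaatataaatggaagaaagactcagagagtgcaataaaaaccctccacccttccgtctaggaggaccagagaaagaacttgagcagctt
The Areg window held 1 cAMP response element, which starts 61 bases before the gene's start and overlaps no AP-1 site. This element is in 1.55% of 32851 promoter windows of this length, and an AP-1 site is in 6.75%. Neither string was in the Btc, Epgn, Tgfa or Egf windows.

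Most Nrg1 UMIs lay in basal-like cells. The 4 basal-like classes held 79.7%, 85.8% and 86.7% of its UMIs in gated cells, where they made up 58.8% ± 11.7 (SD, n = 3) of the cells. They also held most UMIs of Epgn (79.6% on average), Tgfa (75.2%) and Hbegf (69.2%) in every library. For Ereg (57.6%), Egf (57.5%) and Areg (56.8%) they held most on average but not in library 1. Of Btc they held 42.9%. Basal-like cells were deeper than all kept cells, at medians of 15158, 18622.5 and 14190 UMIs against 10554.5, 14025 and 10396. Their share of cells thus understates their share of all UMIs. Over the 3 libraries they held 349227785 of the 444772000 UMIs of all epithelial-like cells. Fibroblast-like cells, the largest class outside the epithelium, held 46443815. Most UMIs of a gene with an even level would therefore lie in basal-like cells, and the shares above do not by themselves show a higher level there. The level of Nrg1 was 145, 76.9 and 113 CPM in squamous basal-like cells, which carry Tmprss11a and no Nkx2-1 UMI. It was 136, 102 and 88.5 CPM in airway basal-like cells, which carry Nkx2-1 and no Tmprss11a UMI. Cells with both genes had 128, 93.2 and 98.4 CPM, and basal-like cells with neither had the highest mean, 134 ± 31.1 CPM (SD, n = 3). All 4 ranges overlapped between libraries. Within each library the cells with neither gene had the highest level, and the order of the other basal classes differed between libraries. Cells with neither gene were shallower, at medians of 9257, 11370 and 6853 UMIs against 16290, 19394 and 15301 in squamous basal-like cells. How many of them lacked a UMI of either gene through low depth was not tested.

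A UMI of Nrg1 was present in 50.1%, 46.1% and 46.1% of squamous basal-like and in 54.9%, 51.9% and 43.5% of airway basal-like cells. With every cell thinned to 5000 UMIs the shares were 34.0%, 25.8% and 29.3%, and 37.6%, 29.5% and 28.1%. In leukocyte-like cells, taken as a class that should lack the gene, 3.62%, 0% and 3.85% of cells held a UMI at median depths of 12743.5, 6168 and 3496 UMIs (0% of 38 cells allows a share of up to 7.89%). The basal shares were above this background in every library.

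In the other epithelial classes the mean of Nrg1 was lower. Suprabasal squamous-like cells, gated on Krt13 and with no recorded position in the tissue, had 122, 56.4 and 81.2 CPM, which overlapped the basal range. Secretory-like cells had 39.1, 11.4 and 15.7 CPM, and ciliated-like cells 34.3, 20.4 and 30.1 CPM. In gland-like cells a UMI was present in 9.42% and 6.93% of cells in libraries 1 and 2 but in 26.1% in library 3 (21.6% against 2.94% and 2.20% after thinning to 5000 UMIs), so library 3 stood apart there. Markers of other lineages moved with it, since the fibroblast gate markers summed to 72.7, 37.4 and 266 CPM and the satellite cell markers to 9.41, 2.91 and 34.7 CPM in gland-like cells, and their part in the Nrg1 level was not tested.

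Among the 4 classes outside the epithelium with at least 20 cells per library, only fibroblast-like cells had an Nrg1 level above 10 CPM in every library. They had 32.8, 35.7 and 34.4 CPM (34.3 ± 1.47, SD, n = 3), the narrowest relative spread of Nrg1 among the classes named here. A UMI was present in 9.96%, 11.3% and 10.6% of them. Fibroblasts with a UMI of Hhip, Wnt16 or Col23a1 had 30.6, 35.7 and 35.1 CPM and those without had 39.8, 35.8 and 31.2 CPM, which overlapped. Muscle satellite-like cells had 3.57, 1.70 and 4.77 CPM. Endothelial-like cells had 4.54, 0 and 0 CPM, with only 29 and 40 cells in libraries 2 and 3.

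**Figure D1:**
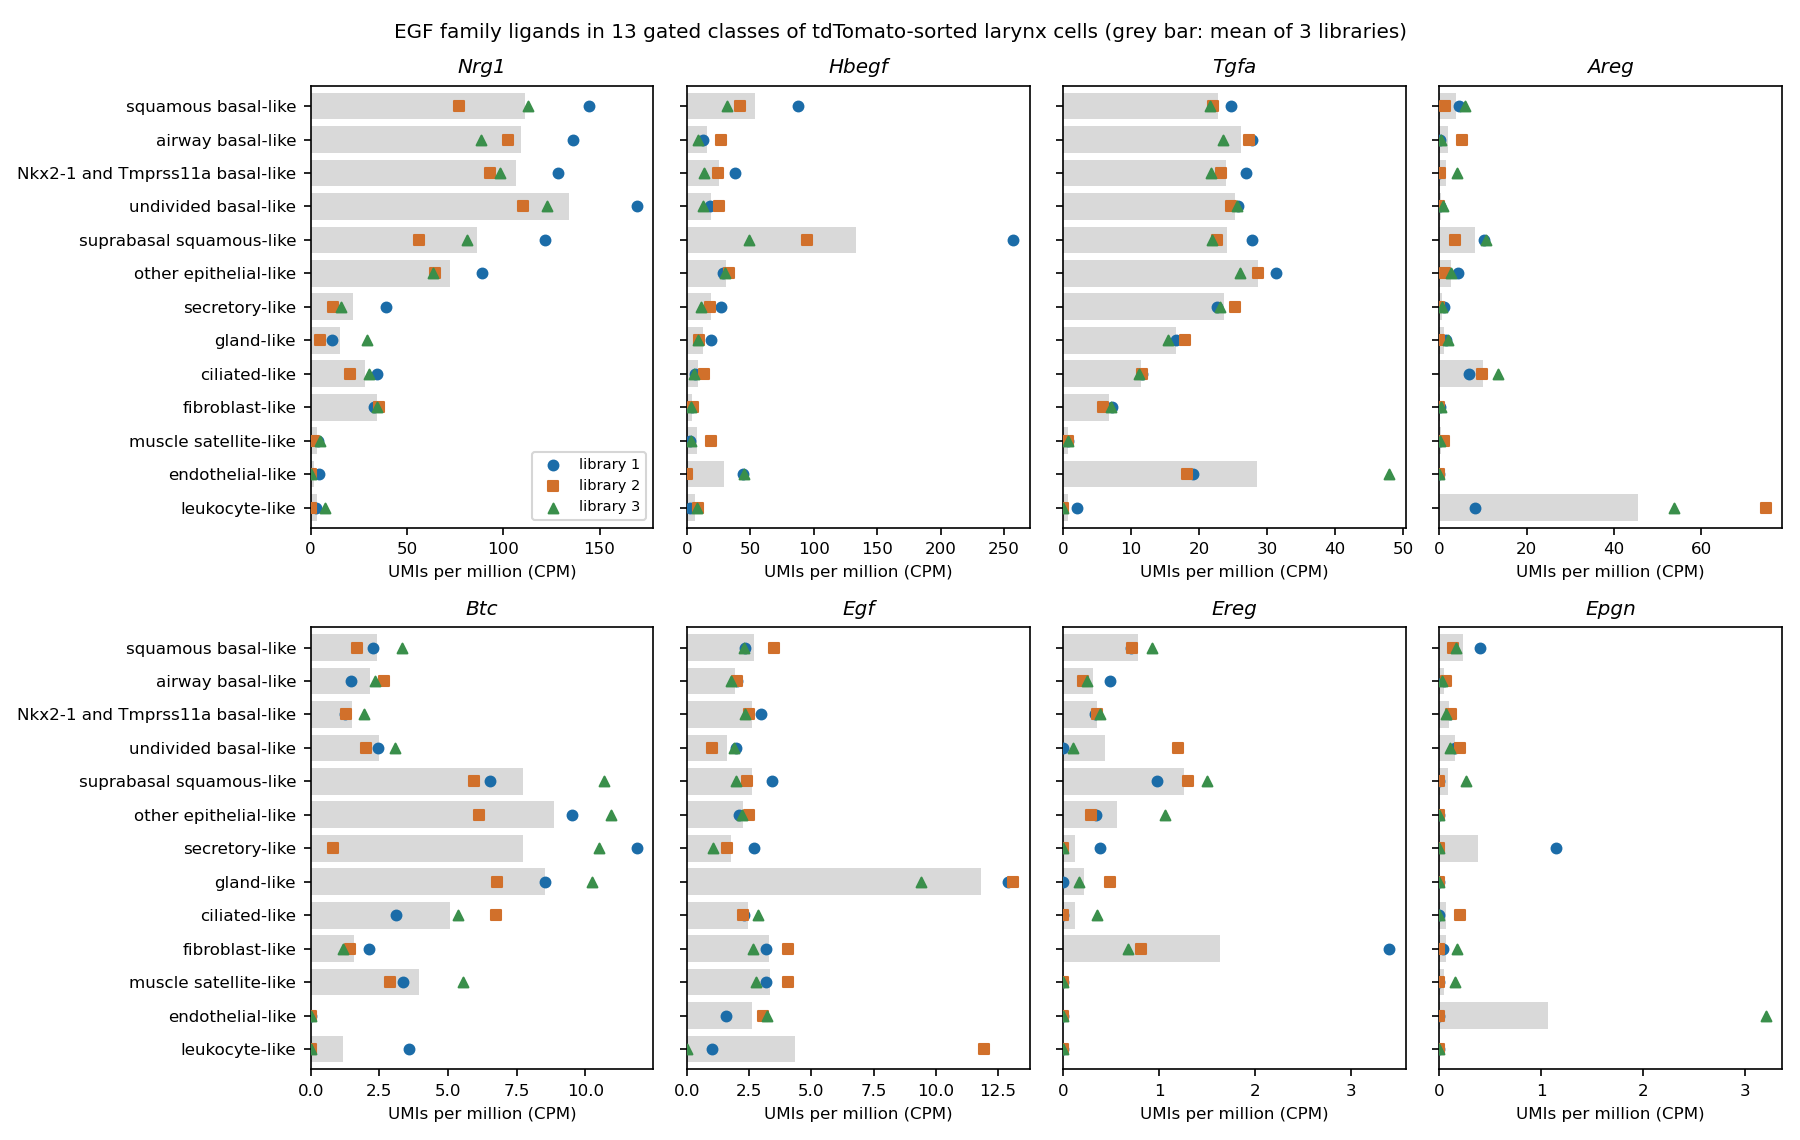
Level of each ligand in 13 gated classes, in CPM of the class (horizontal axis, a separate linear scale for each gene), with 1 marker per library and a grey bar for the mean of the 3 libraries. Nrg1 is high in all 4 basal-like classes, Hbegf in suprabasal and squamous basal-like cells, Egf in gland-like cells, and the Ereg bar in fibroblast-like cells rests on library 1 at 3.40 CPM.

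The mean of Hbegf was highest in suprabasal squamous-like cells. They had 257, 94.5 and 49.4 CPM and squamous basal-like cells 88.0, 42.1 and 31.3 CPM. Within each library the suprabasal class was higher, although the ranges overlapped between libraries. Airway basal-like cells had 12.6, 26.8 and 9.06 CPM. HB-EGF is best known for its release at wound edges of skin. The suprabasal class made up 3.16% of gated cells on average and held 25.0%, 14.7% and 17.2% of Hbegf UMIs. Squamous basal-like cells held a further 45.4%, 44.3% and 51.8%. Suprabasal cells were deeper than all epithelial-like cells together, at medians of 24962.5, 27886 and 25836 UMIs per cell against 14553, 18079.5 and 13869. The suprabasal share of cells thus understates the suprabasal share of all UMIs.

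A UMI of Hbegf was present in 60.6%, 52.0% and 43.9% of suprabasal cells (37.8%, 20.9% and 16.0% after thinning to 5000 UMIs). In squamous basal-like cells the shares were 27.2%, 28.7% and 20.3%, and in fibroblast-like cells 3.81%, 4.17% and 2.89%. Endothelial-like cells had 44.1 and 44.8 CPM in libraries 1 and 3, from 194 and 14 UMIs, and no UMI in 29 cells of library 2, which allows a share of up to 10.3%. No class here is known to lack Hbegf, so no share was set as its background.

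The level of Hbegf followed that of the 15 dissociation-response genes, such as Fos, Atf3 and Egr1, over the libraries in some classes and not in others. Their summed level was 3941, 2049 and 1590 CPM in suprabasal cells and 2734, 2539 and 1616 CPM in squamous basal-like cells, in the same order of libraries as Hbegf. In airway basal-like cells library 2 was highest in both, with the list at 1489, 3001 and 1508 CPM. Muscle satellite-like cells had 2.78, 19.3 and 2.92 CPM of Hbegf, and the high library was library 2, in which the list stood at 22249 CPM. Fibroblast-like cells, with 2202, 2366 and 1961 CPM of the list, had 4.24, 4.87 and 3.50 CPM of Hbegf, again in the same order of libraries but at a lower level. The order was the reverse in secretory-like cells, with 27.2, 17.9 and 11.2 CPM of Hbegf and 965, 1208 and 1316 CPM of the list, and in gland-like cells, with 19.3, 9.23 and 8.73 CPM of Hbegf and 872, 1167 and 1180 CPM of the list. Over all epithelial-like cells Hbegf stood at 54.6, 35.3 and 22.6 CPM and the list at 1923, 2280 and 1486 CPM, so the orders differed there too. The part of cell handling in the Hbegf levels was not tested.

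**Figure D2:**
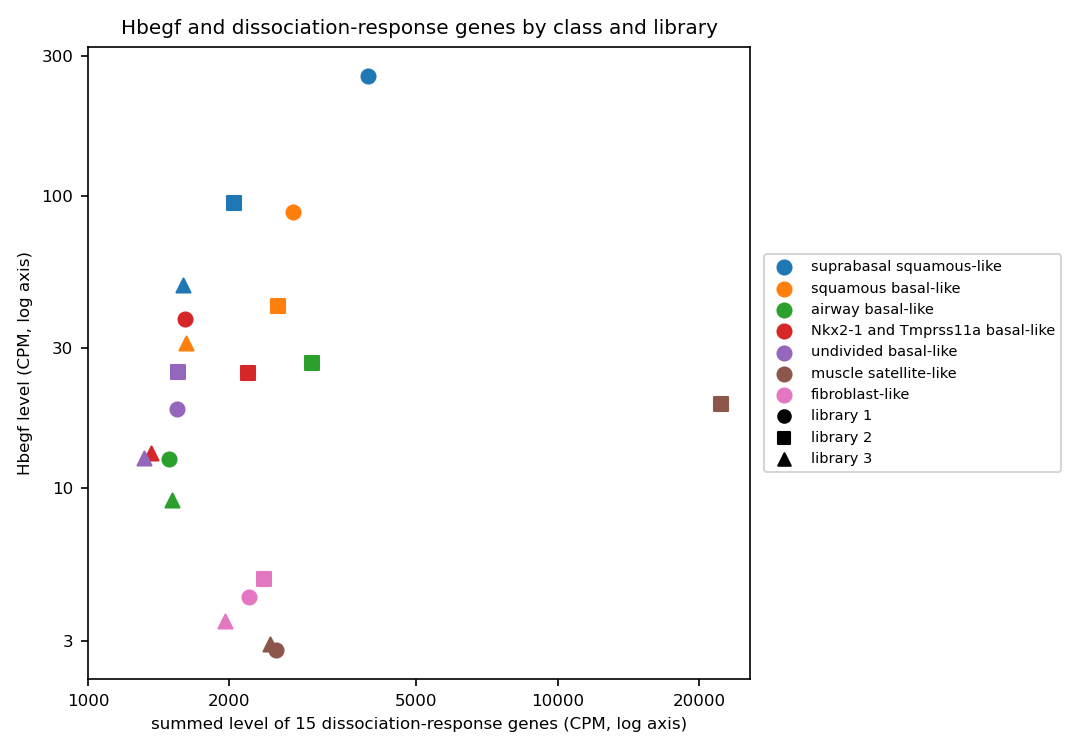
Hbegf level (vertical) against the summed level of 15 dissociation-response genes (horizontal), both in CPM on log axes, with 1 point per class and library (colour for 7 classes, shape for library). Within each library suprabasal cells lie highest of the classes shown, at 49.4 to 257 CPM of Hbegf. Fibroblast-like cells lie at 3.50 to 4.87 CPM, and the satellite-like point of library 2 lies far to the right. Secretory-like and gland-like cells, in which the order of libraries was the reverse, are not shown.

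Tgfa was nearly even across basal, suprabasal and secretory-like cells. In squamous basal-like cells it stood at 24.6, 22.1 and 21.6 CPM, in airway basal-like cells at 27.7, 27.3 and 23.5 CPM and in suprabasal cells at 27.8, 22.7 and 21.8 CPM. Secretory-like cells were at 22.6, 25.2 and 23.1 CPM. Among the 13 classes with at least 20 cells per library the mean was highest, 28.7 CPM, in epithelial cells outside every named class (31.4, 28.6 and 26.1 CPM). Below the squamous basal-like class the classes fell into steps without overlap between neighbours, from gland-like (16.6, 18.0 and 15.4 CPM) to ciliated-like (11.6, 11.6 and 11.1), fibroblast-like (7.14, 5.89 and 7.06) and muscle satellite-like cells (0.794, 0.678 and 0.769).

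Satellite-like cells, which served as background for Tgfa, held a UMI in 0.421%, 0.567% and 0.473% of cells at median depths of 7080, 8349 and 5785.5 UMIs. The share over all epithelial-like cells was 27.6%, 30.8% and 24.5%, or 11.2%, 10.7% and 10.2% after thinning to 5000 UMIs. Endothelial-like cells had 19.1, 18.3 and 48.0 CPM, from 84, 6 and 15 UMIs, and libraries 2 and 3 are too thin there for a level.

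Areg had no single main class. Ciliated-like cells had 6.73, 9.80 and 13.4 CPM, with a UMI in 5.71%, 5.56% and 5.12% of cells, and suprabasal cells had 10.3, 3.53 and 10.8 CPM, with a UMI in 6.30%, 3.50% and 7.04%. In muscle satellite-like cells the share was 0.140%, 0.567% and 0.0947%. The shares in ciliated-like and suprabasal cells overlapped, and both were above those of satellite-like cells in every library. After thinning to 5000 UMIs they were 3.28%, 2.09% and 4.53% in ciliated-like, 1.59%, 0.510% and 3.70% in suprabasal and 0.196%, 0.492% and 0.151% in satellite-like cells, so that in library 2 the suprabasal share was close to that of satellite-like cells. Squamous basal-like cells held 44.5%, 20.8% and 47.6% of Areg UMIs at 4.58, 1.35 and 5.93 CPM, the most of any class in libraries 1 and 3, whereas in library 2 airway basal-like cells held more, 31.4%.

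Few cells carried these molecules. In squamous basal-like cells 35, 23 and 131 cells held 149, 49 and 544 UMIs, and the highest single cell held 50, 11 and 88. In airway basal-like cells of library 2, 1 cell held 72 of 74 UMIs, and that class otherwise had 0.147 and 0.377 CPM in libraries 1 and 3. Leukocyte-like cells had the highest mean, at 8.15, 74.7 and 53.7 CPM, but from 16, 25 and 7 UMIs in 3, 1 and 2 cells (2.17%, 95% Wilson interval 0.742 to 6.20; 2.63%, 0.466 to 13.5; 7.69%, 2.14 to 24.1). These intervals, like all limits on shares here, cover counting error only.

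The level of Egf was highest in gland-like cells, though most of its UMIs lay elsewhere. Gland-like cells, gated on products such as Muc5b, Ltf and Lpo, had 12.9, 13.1 and 9.40 CPM, above every value of Egf in the other classes with at least 20 cells per library except 1. Leukocyte-like cells had 1.02, 11.96 and 0 CPM from 2, 4 and 0 UMIs, so their range overlapped that of gland-like cells. A UMI was present in 11.7%, 17.8% and 8.37% of them (5.51%, 6.59% and 3.56% after thinning to 5000 UMIs), against 1.82%, 2.97% and 1.61% of muscle satellite-like cells. Squamous basal-like cells had 2.34, 3.49 and 2.31 CPM, fibroblast-like cells 3.19, 4.06 and 2.66 CPM and satellite-like cells 3.18, 4.07 and 2.77 CPM. Gland-like cells made up 2.33% of gated cells on average and held 16.9%, 8.18% and 8.82% of Egf UMIs. Squamous basal-like cells held more in each library, 17.4%, 38.5% and 33.4%. Satellite-like cells were the background class planned for Egf, and the squamous basal-like level was below theirs in each library. The Egf UMIs of squamous basal-like cells could thus not be told from background. Within gland-like cells Egf was not the most abundant ligand, since its mean of 11.8 CPM was below that of Tgfa (16.7 CPM). In the other 11 classes with at least 20 cells per library the mean of Egf was at most 3.34 CPM.

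Btc was higher in suprabasal and gland-like cells than in squamous and airway basal-like cells. Suprabasal cells had 6.55, 5.94 and 10.7 CPM, gland-like cells 8.54, 6.80 and 10.2 CPM and epithelial cells outside every named class 9.52, 6.13 and 10.9 CPM. Squamous basal-like cells had 2.28, 1.68 and 3.31 CPM and airway basal-like cells 1.47, 2.66 and 2.34 CPM, below all of these. Secretory-like cells had 11.9, 0.814 and 10.5 CPM from 31, 1 and 30 UMIs, so library 2 stood apart in that class of 66 cells. A UMI of Btc was present in 11.4%, 11% and 16.7% of suprabasal cells and in 3.02%, 2.79% and 4.13% of squamous basal-like cells. In the stroma the share was 1.82%, 1.98% and 3.03% in satellite-like cells (3.38, 2.88 and 5.54 CPM). Fibroblast-like cells, with medians of 10905, 11286 and 9014 UMIs per cell, had a share of 1.61%, 1.47% and 0.980%. Endothelial-like cells had none in 492, 29 and 40 cells, which allows up to 0.610%, 10.3% and 7.50% (medians of 7342, 6667 and 4873.5 UMIs per cell). After thinning to 5000 UMIs the share was 2.39%, 3.06% and 4.10% in suprabasal, 0.994%, 0.653% and 1.27% in squamous basal-like and 0.847%, 0.783% and 0.526% in fibroblast-like cells. At equal depth the suprabasal shares thus lay above both others, which overlapped. Satellite-like cells, planned as the background class for Btc as for the other rare ligands, had 1.57%, 1.15% and 2.56%. In each library this was below the suprabasal share and above those of squamous basal-like and fibroblast-like cells. After these values were seen, satellite-like cells were not read as background for Btc. By the planned background, the Btc shares of squamous basal-like and fibroblast-like cells could not be told from it.

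Ereg and Epgn were rare. Fibroblast-like cells had the highest mean of Ereg, at 3.40, 0.812 and 0.678 CPM from 81, 4 and 12 UMIs, so library 1 was several times above the others. Suprabasal cells had 0.982, 1.30 and 1.50 CPM, above squamous basal-like cells at 0.708, 0.714 and 0.926 CPM with no overlap. These suprabasal levels came from only 4.62%, 12.7% and 16.8% of the few Ereg UMIs in gated cells. The difference did not pass in the main edgeR fit, and it passed in 1 of 10 alternative fits by edgeR or DESeq2 (adjusted p from 0.0471 to 0.336). No Ereg UMI was seen in 713, 706 and 1056 satellite-like cells, which allows up to 0.421%, 0.425% and 0.284%. Of 23, 10 and 37 Epgn UMIs, 13, 5 and 15 were in squamous basal-like cells, and in library 1, 11 of those 13 were in a single cell.

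**Figure D3:**
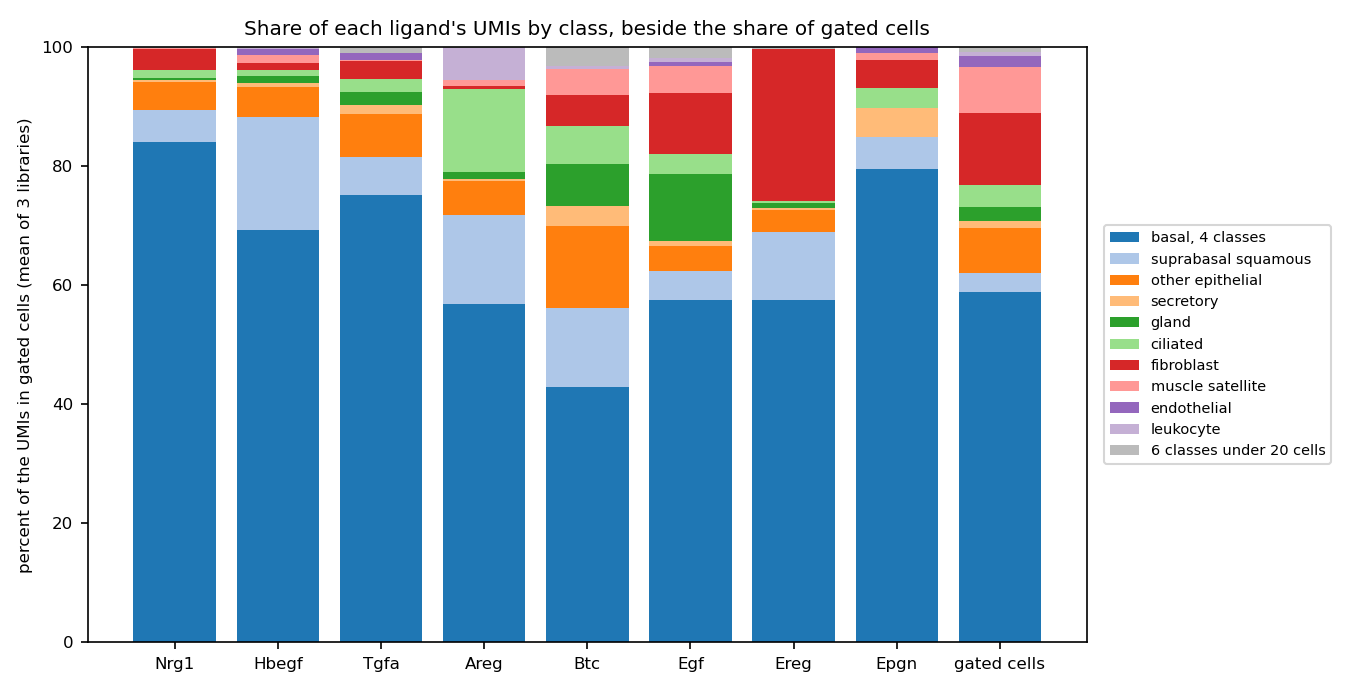
Percent of each ligand's UMIs that lay in each group of classes (stacked bars, mean of 3 libraries), beside the percent of gated cells in the same groups in the last bar. Depth differed between classes, so the last bar is not the share of all UMIs. Basal-like cells hold 84.1% of Nrg1 UMIs, suprabasal cells 19.0% of Hbegf UMIs with 3.16% of cells, gland-like cells 11.3% of Egf UMIs with 2.33% of cells, and fibroblast-like cells 25.5% ± 31.9 (SD, n = 3) of Ereg UMIs.

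Some single cells carried more than 1 ligand, in suprabasal and in basal-like cells. With cells thinned to 5000 UMIs, 18.7%, 8.67% and 10.98% of suprabasal cells held UMIs of 2 or more of the 8 genes, against 12.4%, 7.72% and 8.05% of squamous basal-like and 8.12%, 7.66% and 5.12% of airway basal-like cells. Basal-like cells with both Nkx2-1 and Tmprss11a had 9.33%, 5.94% and 5.62%. Undivided basal-like cells had 7.34%, 9.19% and 6.22%, in library 2 above the suprabasal share. In fibroblast-like cells the share was 0.790%, 0.261% and 0.658%. The suprabasal and squamous basal-like ranges overlapped between libraries, and within each library the suprabasal share was the higher of these classes.

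For 6 of the ligands, those at 5 CPM or more in at least 1 class, the genes with the most similar pattern were looked up by Pearson's r over the mean levels of 13 classes, among 15349 genes. The 13 classes come from the same 3 libraries, so r is a description only. Artn (0.974), Loxl4 (0.971) and Fjx1 (0.971) were nearest to Nrg1. Trex2 (0.949), Mrpl12 (0.931) and Klf16 (0.910) were nearest to Hbegf, and Cttnbp2 (0.978), Samd12 (0.973) and Shroom2 (0.967) to Tgfa. For Egf these were Olfm4 (0.909), Crisp3 (0.882) and Scgb2b18 (0.881), all highest in gland-like cells. Btc had Slco1a6 (0.876), Alox12e (0.872) and Lgals12 (0.872), and Areg had Gpr35 (0.956), H2az1 (0.954) and Itgb7 (0.952), all 3 highest in the few leukocyte-like cells. Among the ligands themselves the largest r was 0.639, between Hbegf and Tgfa.

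The tests that follow compared UMI counts summed per library and class, over 3 libraries, with edgeR's quasi-likelihood test and p-values adjusted over all genes tested (threshold 0.05). The p-values rest on the spread between 3 pools of animals, which edgeR estimates for each gene with help from the other genes. With so few pools, very small p-values, above all with the block, thus rest in large part on that shared estimate. They do not measure how firmly 1 gene repeats over pools. Both sums of a library came from 1 pool, so a fit with the library as a block was run beside the main fit, and for the ligands its value is given where it changed a call.

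Epithelial-like cells were first compared with fibroblast-like cells. Of 7 ligands tested, 5 were higher in epithelium, where 31.6% of all genes were, and 1 was lower, where 29.0% of all genes were. Their median log2 fold change was 1.53, against 0.08 over all genes. Areg stood at 2.87, 2.18 and 4.67 CPM in all epithelial-like cells and at 0.126, 0 and 0.452 CPM in fibroblasts, without overlap (log2 fold change 3.78 ± 0.64 SE, adjusted p = 0.00178, edgeR). Hbegf, at 54.6, 35.3 and 22.6 CPM in epithelium, was higher by 3.21 ± 0.36 (adjusted p = 0.00021). Tgfa, at 25.1, 23.3 and 21.9 CPM, was higher by 1.80 ± 0.15 (adjusted p = 4.7e-05), and Nrg1, at 117, 77.6 and 96.3 CPM, by 1.53 ± 0.15 (adjusted p = 0.000136). For none of these 4 did the epithelial and fibroblast ranges overlap. This holds for the epithelial sum, in which 22267 of 28649 cells were basal-like, and not for every epithelial class. The mean of Nrg1 was higher in fibroblast-like cells (34.3 CPM) than in ciliated-like (28.3), secretory-like (22.1) and gland-like cells (15.0). For Areg, undivided basal-like cells (mean 0.332 CPM) overlapped fibroblast-like cells (mean 0.193 CPM).

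Btc and Ereg were less firm in this comparison. Btc was at 3.51, 2.83 and 3.97 CPM in epithelium and 2.14, 1.42 and 1.19 CPM in fibroblasts (log2 fold change 1.09 ± 0.31, adjusted p = 0.0179), and the call was lost without library 2 (adjusted p = 0.0674) or library 3 (0.69, adjusted p = 0.101). Ereg was lower in epithelium, at 0.447, 0.543 and 0.663 CPM (log2 fold change -1.67 ± 0.62, adjusted p = 0.04996). It did not pass with the library block (-1.38, adjusted p = 0.129), and without library 1 the difference was -0.23 (adjusted p = 0.760). Egf differed by -0.19 ± 0.25 (adjusted p = 0.529).

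Squamous basal-like cells had more Hbegf than airway basal-like cells in each library, but the test of it depended on the fit. None of 7 ligands passed in the main fit, where 9.16% of all genes were higher and 9.58% lower in squamous cells. Hbegf was 1.77 ± 0.52 higher (adjusted p = 0.0542), and with the block 1.75 ± 0.34 (adjusted p = 0.00587), where 41.9% of all genes were called in either direction. It passed in 6 of 11 alternatives, the block among them, with adjusted p from 0.00587 to 0.432, the highest without library 1. The difference was smallest in library 2. With the block 5 of the 15 dissociation-response genes were also higher in squamous cells and none lower, and their part in the Hbegf difference was not tested. Ereg behaved alike, with 1.32 ± 0.38 (adjusted p = 0.0506) and with the block 1.39 ± 0.37 (adjusted p = 0.0221), a call lost without library 3 (adjusted p = 0.18).

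Areg in basal cells depended on the 1 cell of library 2 described above. The difference was 1.20 ± 1.10 with all libraries (adjusted p = 0.521) and 4.20 without library 2 (adjusted p = 0.00722). With that 1 cell left out, a choice made after seeing the data, it was 3.98 ± 0.66 (adjusted p = 0.00612). Nrg1 differed by 0.03 ± 0.25 (adjusted p = 0.946) and Tgfa by -0.20 ± 0.12 (adjusted p = 0.312). The median over the 7 ligands was 0.49, against 0.00 over all genes.

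Between suprabasal squamous-like and squamous basal-like cells, Btc was higher in the suprabasal class. Its log2 fold change was 1.83 ± 0.32 (adjusted p = 0.00723), and it was the only 1 of 7 ligands to pass, where 10.1% of all genes were higher and 9.62% lower. Without library 1 the difference was of like size but did not pass (adjusted p = 0.101). With the block, which called 46.0% of all genes, Hbegf at 1.26 ± 0.12 (adjusted p = 5.29e-06; main fit 1.43 ± 0.61, adjusted p = 0.14) and Areg at 1.19 ± 0.16 (adjusted p = 9.59e-05; main fit 1.22 ± 0.55, adjusted p = 0.158) passed as higher. Nrg1 passed as lower, at -0.26 ± 0.06 (adjusted p = 0.00406; main fit -0.23 ± 0.30, adjusted p = 0.625). The blocked Nrg1 call was lost without library 3 (-0.22, adjusted p = 0.0614), whereas those of Hbegf and Areg passed without any 1 library. Each of these 3 differences had 1 direction in all 3 libraries. Of the dissociation-response genes 5 were higher and 1 lower with the block, and their part in the result was not tested. Suprabasal cells were deeper, at medians of 24962.5, 27886 and 25836 UMIs against 16290, 19394 and 15301. With the block and all cells thinned to 5000 UMIs Hbegf was higher by 1.20, Areg by 0.93 and Btc by 1.81, and Nrg1 differed by -0.40, all with an adjusted p at or below 0.0336.

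Secretory-like and airway basal-like cells differed in Nrg1 and Btc. Nrg1 was lower in secretory-like cells (log2 fold change -2.01 ± 0.37, adjusted p = 0.00668), where 7.18% of all genes were lower, and the ranges did not overlap. Btc was higher by 2.21 ± 0.53 (adjusted p = 0.0234), where 9.29% were higher. Library 2 went the other way for Btc, at 0.814 against 2.66 CPM, and the call was lost without library 1 (1.58, adjusted p = 0.358) and without library 3 (adjusted p = 0.0911). Of the 15 dissociation-response genes 2 were lower in secretory-like cells, Dusp1 (-0.77) and Junb (-0.77), and 6 with the block, where 12.9% of all genes were, and their part in these differences was not tested. Hbegf, Tgfa and Egf, the other ligands tested, differed by 0.45, 0.05 and 0.11 with adjusted p from 0.605 to 0.925. The median over the 5 was 0.11, against -0.03 over all genes.

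In the stroma, satellite-like cells, the stem cells of muscle, had little of Nrg1 and Tgfa. Compared with fibroblast-like cells, Nrg1 was lower, with a log2 fold change of -3.38 ± 0.26 (adjusted p = 3.93e-05), and Tgfa as well, with -3.19 ± 0.28 (adjusted p = 8.08e-05), where 26.8% of all genes were lower. Btc was higher by 1.24 ± 0.37 (adjusted p = 0.0264), where 20.4% were higher. That call was lost without library 1 (adjusted p = 0.0605), library 2 (0.0743) or library 3 (0.177), without doublet removal (0.0512) and with all barcodes (0.0516), which makes 5 of 10 alternatives. Hbegf differed by 1.04 ± 0.75 (adjusted p = 0.29), and without library 2, where the dissociation-response genes stood at 22249 CPM, by -0.51 (adjusted p = 0.312). Of those 15 genes 5 were higher in satellite-like cells, and their part in the result was not tested. Egf differed by 0.03 ± 0.32 (adjusted p = 0.939). The median over 5 ligands was 0.03, against -0.01 over all genes.

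**Figure D4:**
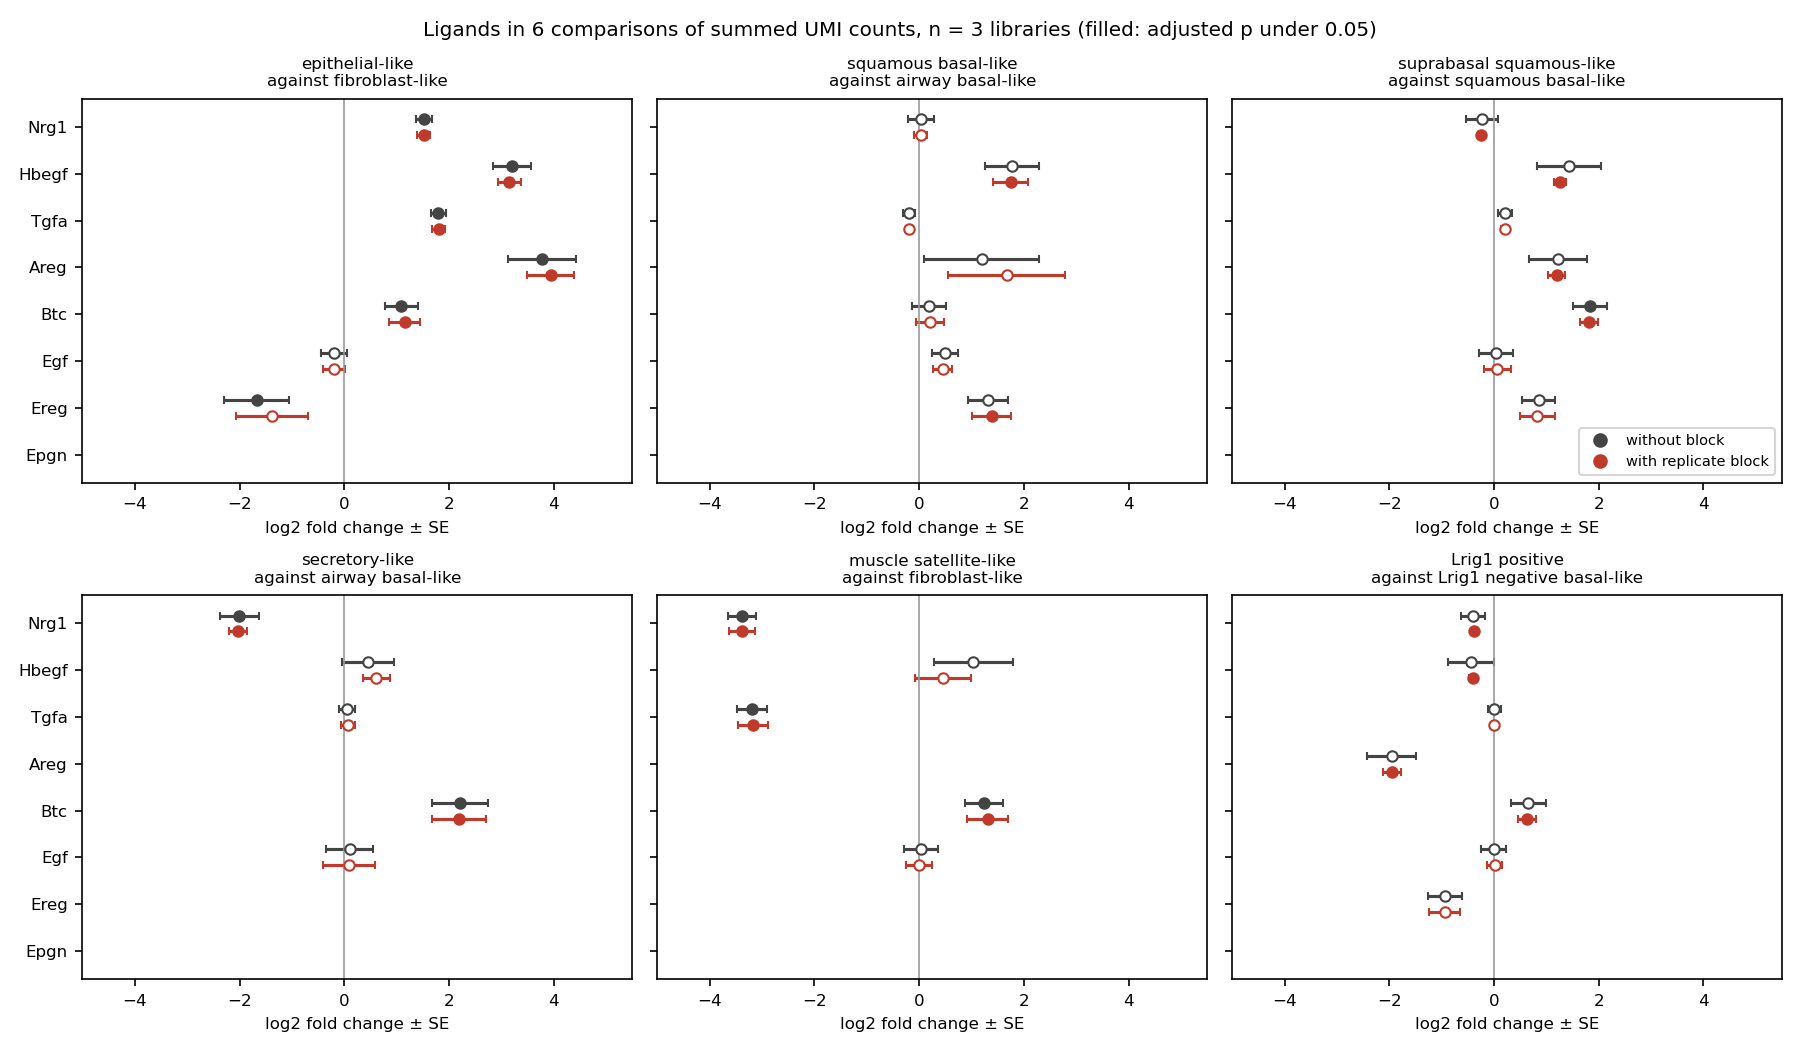
Log2 fold change ± SE of each ligand (rows) in 6 comparisons of summed counts over 3 libraries, without (grey) and with (red) the library as a block, where filled points have an adjusted p under 0.05 and a ligand without a point was not tested. In the epithelium against fibroblasts 5 ligands lie to the right of 0 with filled points in both fits, and in the Lrig1 comparison points are filled only with the block.

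Basal-like cells with and without an Lrig1 UMI were compared last. All carried the Lrig1-driven label, so the split divides labelled cells by whether an Lrig1 molecule was captured. Areg was lower in cells with Lrig1 in every library, at 0.760, 0.866 and 2.50 CPM against 4.33, 4.35 and 7.46 CPM, without overlap. In library 2 this rested on 1 airway basal-like cell, which held 72 of the 81 Areg UMIs of the cells without Lrig1, and without it their level was 0.484 CPM, below the 0.866 CPM of cells with Lrig1. Hbegf was at 42.3, 32.6 and 19.3 CPM against 66.7, 37.3 and 23.7 CPM, and Nrg1 at 123, 83.9 and 96.6 CPM against 176, 100 and 121 CPM. Both overlapped between libraries but were lower in each. Btc had the opposite direction, at 2.11, 2.14 and 2.91 CPM against 1.33, 0.806 and 2.26 CPM. Tgfa was at 25.6, 24.2 and 22.1 CPM against 27.0, 21.7 and 22.5 CPM.

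In the main fit edgeR called 0 of 17044 genes (0%), with 660 at an unadjusted p under 0.05, and DESeq2 called 70. Areg differed by -1.96 ± 0.47 (adjusted p = 0.806 by edgeR and 0.00894 by DESeq2). With the library as a block 12.4% of genes were called, and 4 of 7 ligands were among them. Cells with Lrig1 were lower in Areg, at -1.96 ± 0.17 (adjusted p = 9.45e-06), in Nrg1, at -0.38 ± 0.04 (adjusted p = 7.18e-05), and in Hbegf, at -0.41 ± 0.07 (adjusted p = 0.00129). Btc was higher by 0.63 ± 0.18 (adjusted p = 0.0366), a call lost without library 1 (adjusted p = 0.0711) or library 2 (0.0853). Tgfa differed by 0.00 ± 0.05 (adjusted p = 0.989). Of the 15 dissociation-response genes 2 were higher and 2 lower with the block. The ligand median was -0.40 in the main fit, against -0.01 over all genes.

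Depth moved with this split, with medians of 16701, 19602.5 and 16004 UMIs in cells with Lrig1 and 12638, 15747.5 and 10949 in cells without. With the block and cells thinned to 5000 UMIs after the split, Areg (-1.86), Nrg1 (-0.31) and Hbegf (-0.42) still passed, with adjusted p of 2.53e-09, 8.77e-08 and 5.1e-06, and Btc did not (0.14, adjusted p = 0.819). Within squamous basal-like cells alone the differences were -2.18 for Areg (adjusted p = 0.00457), -0.56 for Nrg1 (adjusted p = 0.000958) and -0.60 for Hbegf (adjusted p = 0.00191). Within airway basal-like cells Nrg1 and Hbegf differed by -0.10 and -0.19 (adjusted p = 0.286 and 0.506), and Areg was too sparse to test. Btc passed in neither class alone (adjusted p = 0.216 and 0.321). Whether the difference itself differed between these classes was not tested. The Areg molecules came from 22, 22 and 115 cells with Lrig1 and 17, 8 and 98 cells without, whose highest cells held 9, 11 and 36 against 50, 72 and 88 UMIs. With the block the Areg difference passed without any 1 library, at -1.79 to -2.42. It was -1.55 ± 0.28 (adjusted p = 0.00264) without the cell of 72 UMIs and -1.12 ± 0.25 (adjusted p = 0.0089) without the highest cell of each library. In the latter case libraries 1 and 3 stood at 2.44 and 6.05 CPM in cells without Lrig1, above cells with it, and library 2 went the other way.

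**Figure D5:**
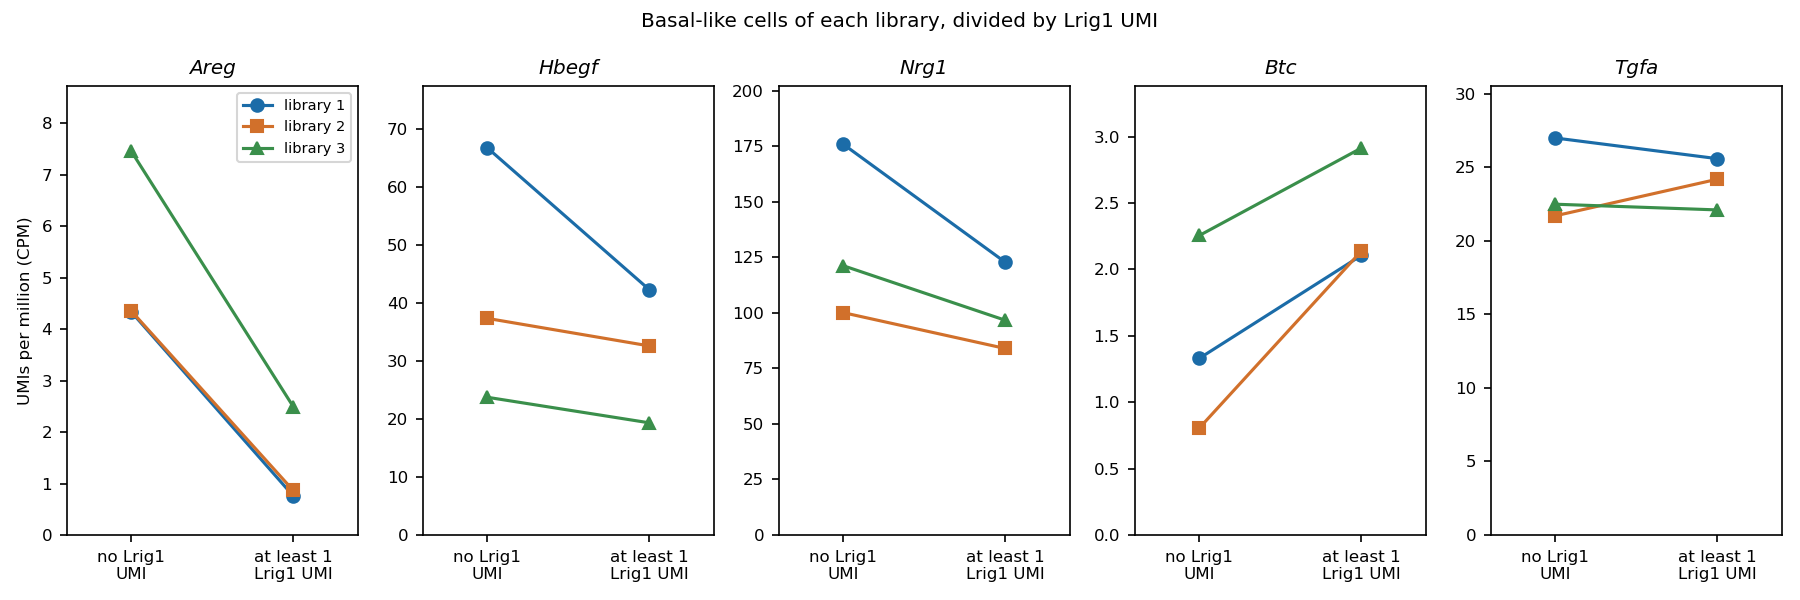
Level of 5 ligands in CPM (vertical axis from 0) in basal-like cells without and with an Lrig1 UMI, with 1 line per library joining its 2 sums. All 3 lines fall for Areg, Hbegf and Nrg1 and rise for Btc (the Areg line of library 2 rests on 1 cell with 72 UMIs), whereas those for Tgfa stay between 21.7 and 27.0 CPM.

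The receptors and regulators of the pathway were counted from a list of 30 genes. In epithelial-like against fibroblast-like cells 16 of 29 tested genes were higher, where 31.6% of all genes were, and 5 lower, where 29.0% were (median log2 fold change 0.66, against 0.08 over all genes). All 4 ErbB receptors were higher, namely Egfr by 0.52, Erbb2, which binds no ligand itself, by 2.25, Erbb3 by 4.82 and Erbb4 by 3.28. Egfr was also present in stroma, at 470, 500 and 494 CPM in satellite-like cells and 235, 218 and 202 CPM in fibroblast-like cells, and was low in endothelial-like cells (10.0, 3.05 and 3.20 CPM). Between squamous and airway basal-like cells 5 of 29 were higher (9.16% of all genes) and 3 lower (9.58%), and with the block 12 (21.7%) and 5 (20.3%). In suprabasal cells 6 of 28 were higher (10.1%) and 9 lower (9.62%), and with the block 10 (24.8%) and 14 (21.2%). Secretory-like cells had 2 of 28 higher (9.29%) and 8 lower (7.18%), with the block 3 (14.4%) and 10 (12.9%). Satellite-like cells had 9 of 26 higher (20.4%) and 4 lower (26.8%), with the block 10 (25.7%) and 8 (30.6%). With the block the epithelium had 18 of 29 higher (34.3%) and 6 lower (31.0%) than fibroblasts. None of 28 was called by the Lrig1 split, and with the block 1 was higher (5.26%) and 6 lower (7.16%).

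Erbb4, a receptor for Nrg1, Hbegf, Btc and Ereg, passed the test in 5 of 6 comparisons, as did Etv5 and Lrig3. It was lower in squamous than in airway basal-like cells (log2 fold change -2.51) and lower again in suprabasal cells (-3.49), where its level was 0.818, 0.557 and 0.828 CPM and where Hbegf was highest. In secretory-like cells it was higher than in airway basal-like cells (1.23), at 136, 120 and 70.0 CPM, and in satellite-like cells it was higher than in fibroblasts (2.73).

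Transcripts of part of the inhibitors of ErbB and ERK signalling were lower in suprabasal and secretory-like cells than in the basal class each was compared with. Lrig2 and Lrig3 were counted in this list beside Lrig1, and what they do to ErbB receptors was not measured. Fibroblast gate markers were lower too, at 226, 175 and 282 CPM in suprabasal against 320, 236 and 428 CPM in squamous basal-like cells. In secretory-like cells they stood at 133, 217 and 281 CPM against 704, 478 and 792 CPM in airway basal-like cells, and their part was not tested. In suprabasal cells 6 of 10 tested inhibitors were lower, where 9.62% of all genes were, and none higher (8 lower with the block, where 21.2% were), with Lrig1 at -0.52, Lrig3 at -0.46, Spred1 at -0.63 and Spred2 at -0.78, while Lrig2 differed by -0.06 (adjusted p = 0.724). In secretory-like cells 5 of 10 were lower, where 7.18% of all genes were (6 with the block, where 12.9% were), with Lrig3 at -0.75, Spred1 at -0.61 and Spred2 at -0.60, while Lrig1 differed by -0.10 (adjusted p = 0.569). Between epithelium and fibroblasts 4 of 11 inhibitors were higher (31.6% of all genes), among them Lrig1 (0.98) and Spred2 (1.28), and 3 lower (29.0%), Errfi1 (-1.51), Spred1 (-0.37) and Spry4 (-5.26), both near the share over all genes. In satellite-like cells 4 of 11 were higher than in fibroblasts (20.4% of all genes), among them Lrig1 (1.06) and Spred2 (0.78), and 1, Lrig3, was lower (26.8%). Etv5, a transcription factor induced by ERK signalling, was higher in squamous than in airway basal-like cells (0.97) and lower in suprabasal (-1.47) and secretory-like cells (-2.33). The 8 ERK targets did not move as one. In suprabasal cells Dusp4 (1.14) and Dusp5 (2.40) were higher and only Etv5 was lower, with a list median of 1.06 (with the block 5 higher and 3 lower), and in squamous against airway basal-like cells Phlda1 was also higher (1.52) and Dusp4 lower (-2.76). Nrg2, another neuregulin, was higher in epithelium than in fibroblasts (0.56) and lower in suprabasal (-0.92), secretory-like (-1.78) and satellite-like cells (-3.95). Apart from the values given with an adjusted p, all of these passed edgeR's test with an adjusted p under 0.05 in the main fit. In the main fits none of the 15 dissociation-response genes was called between the basal classes, between the squamous layers or by the Lrig1 split, 5 were higher in satellite-like cells than in fibroblasts, where 20.4% of all genes were, and 1 was higher and 2 lower in epithelium than in fibroblasts.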

How the data were processed

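The deposited files hold raw UMI counts per gene and barcode, which the authors made with Cell Ranger 8.0.1 on mm39 (per the submitters' processing notes), 1 matrix per library with no cell annotation. The members and gene lists were chosen with earlier results of these data known. Quality limits were 500 to 8000 genes, 1000 to 40000 UMIs and a mitochondrial share of no more than 8%. The study's methods name these numbers with genes and UMIs exchanged. Doublets were scored against simulated doublets and removed at 0.4% per 1000 barcodes (1030, 326 and 3495 cells). A lineage needed UMIs of at least 3 of its markers. Cells of 2 lineages were left out, and epithelial classes then followed fixed gates (neuroendocrine, ciliated, tuft, myoepithelial, gland, suprabasal, basal, secretory, in this order), with at least 10 UMIs of gland products, Krt13 or secretoglobins and at least 5 of basal keratins. Cells were thinned to 5000 or 2000 UMIs for shares. Intervals are 95% Wilson intervals, and a count of 0 allows 3 counts.

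Counts were summed per library and class and tested with edgeR 4.0.16 (R 4.3.3, filterByExpr, TMM, quasi-likelihood F-test, Benjamini-Hochberg adjustment) over the 2 classes compared, without a block. Genes used in the gates of a comparison were left out of it. The alternatives were DESeq2 1.42.0, RLE factors, no count filter, stricter lineage gates, all barcodes, no doublet removal, thinning, the replicate block and leaving out each library. The block with thinning, with a library left out and within single basal classes, and leaving out the basal-like cells with the most Areg UMIs, were added after seeing the data. Both sums of a library stem from one pool of animals, and their deviations from the group means correlated at 0.138 to 0.77 for every library and comparison. The code was tested on simulated data. Named genes were all 8 ligands, the pathway genes called in at least 4 of 6 comparisons (and the ErbB receptors and other list members chosen after their values were seen) and the 3 genes most alike to each ligand at 5 CPM or more, on a log2 scale of CPM plus 1. A second feature named Nrg1 had 0 UMIs. Of the feature identifiers, 33185 were in the GENCODE annotation that gave positions. 3′ counts do not separate Nrg1 isoforms.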

Additional observations from a re-analysis of the deposited data

How the results depend on the processing

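Of 411 alternative values for single ligands 347 kept direction and side of the threshold, 27 turned direction without passing the test in either fit, 20 passed only in the alternative and 17 no longer passed. No ligand that passed in either fit turned its direction. The replicate block, which pairs the 2 sums of a pool, raised the number of genes called, to 6731 against 3008 for squamous against airway basal-like cells, 6975 against 2994 for suprabasal against squamous basal-like, 3648 against 2201 for secretory-like against airway basal-like and 2116 against 0 for the Lrig1 split, where DESeq2 called 70. It was 12367 against 11475 for epithelium and 7780 against 6522 for satellite-like cells against fibroblasts. Leaving out 1 library gave 7555 to 11719, 519 to 2732, 482 to 2034, 487 to 2118, 3474 to 6169 and 0 to 0 calls in these comparisons (epithelium first, then as ordered above with satellite-like cells before the Lrig1 split). The lowest count was without library 1, except for the Lrig1 split, and it lay further below the main count, as a fold, than the block lay above it. Thinning to 5000 UMIs gave 1902 calls between basal classes and 1333 for secretory-like cells, with fewer genes tested.

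The mean share of cells with a UMI fell with thinning by construction. At 5000 and 2000 UMIs it was 24.9% and 15.4% for Hbegf in suprabasal cells (main 52.2%), 33.4% and 19.5% for Nrg1 in undivided basal-like cells (42.2%), 11.7% and 5.64% for Tgfa (20.2%) and 3.40% and 1.92% for Btc (6.26%) in unclassed epithelial cells, and 5.22% and 2.32% for Egf in gland-like cells (12.6%). At 2000 UMIs it was 0.213% for Ereg in fibroblast-like cells (0.832%). For Areg in leukocyte-like cells it was 9.47% at 5000 UMIs (4.17%), with shallow cells left out. With all barcodes the Tgfa share was 17.0%, and with 4 lineage markers the shares were 24.2% for Tgfa and 8.07% for Btc. The Egf level in gland-like cells was 13.9 CPM at 5000 UMIs (11.8 CPM). The cause was not tested beyond these settings. Few UMIs limit the values of Epgn and Ereg, and few cells those of endothelial-like cells in libraries 2 and 3 and of leukocyte-like cells.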
